A study of Mus musculus with 9 samples.

Results

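Cholesterol handling in the mouse hippocampus was followed through 31 genes of its synthesis, its control, its movement between membranes, its export and its breakdown. They were chosen by symbol, and all 31 were found once each among the 57010 genes of the deposited table and passed the filter on low counts that left 17967 genes. They comprise 18 synthesis enzymes, 5 genes of the sterol-sensing SREBP system, 3 genes of intracellular transport, 4 genes of export and its nuclear receptors, and Cyp46a1. They do not cover every gene of the pathway.

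The tissue came from C57BL/6J mice in 3 groups of 3 libraries. In the Sham group a lumbar spinal nerve was located and left untied, and solvent followed. In the SNL group the nerve was tied, which serves as a model of neuropathic pain, with solvent afterwards. The CBD group was ligated too and received cannabidiol, a cannabinoid that does not intoxicate, by intraperitoneal injection at 5 mg/kg for 15 days. No group was given cannabidiol without the ligation. Age and sex are not given in the labels, and they do not state whether each library is a different animal. The p-values therefore reflect the spread among these 9 libraries, part of which may be technical. For each pair of libraries in a group, a chi-square per gene set their counts against a split by library total. It was 6.15 for CBD 2 and CBD 3, the most alike, and from 16.8 to 40.8 for the other pairs. The cause of this likeness was not tested.

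The brain makes its own cholesterol, because lipoproteins of the blood do not cross the blood-brain barrier. Acetyl units are joined into mevalonate, isoprenoids and squalene, and squalene is closed into a ring and trimmed to cholesterol. When sterols run low, SCAP carries SREBP2 from the endoplasmic reticulum to the Golgi, where it is cut and released to switch on the synthesis genes. When sterols are plentiful, INSIG proteins hold SCAP back, and oxysterols switch on export through the LXR receptors. Oligodendrocytes use cholesterol for myelin, astrocytes supply it to neurons, and neurons dispose of it by hydroxylation with CYP46A1.

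The control regions of 3 members are shown because SREBP2 acts through such sequences and because these members stand for synthesis, feedback and the factor itself. Each is the RefSeq promoter on build GRCm38.p6, written 5′ to 3′ on the gene's strand, from 250 bases before the start of transcription to 50 bases after it. Capitals mark the letters TCACNCCAC or TCACNCCA of a sterol regulatory element, and CCAAT, the letters bound by NF-Y, a factor that works beside SREBP, which on the opposite strand reads ATTGG. Hmgcs1 lies at chr13:119690101-119690400, Insig1 at chr5:28071162-28071461 and Srebf2 at chr15:82147019-82147318, all on the plus strand.
Hmgcs1: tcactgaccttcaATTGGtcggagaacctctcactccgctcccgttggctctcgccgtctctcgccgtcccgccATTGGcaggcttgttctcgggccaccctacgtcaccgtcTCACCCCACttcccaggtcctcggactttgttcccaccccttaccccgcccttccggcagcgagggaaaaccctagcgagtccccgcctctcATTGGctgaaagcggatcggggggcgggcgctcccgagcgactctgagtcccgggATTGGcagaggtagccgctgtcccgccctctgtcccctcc
Insig1: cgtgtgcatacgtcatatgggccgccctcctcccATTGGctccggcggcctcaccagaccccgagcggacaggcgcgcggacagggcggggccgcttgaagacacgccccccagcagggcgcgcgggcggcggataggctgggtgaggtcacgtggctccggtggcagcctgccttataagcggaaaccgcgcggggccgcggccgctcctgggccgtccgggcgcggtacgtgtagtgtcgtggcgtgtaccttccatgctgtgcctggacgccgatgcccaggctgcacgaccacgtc
Srebf2: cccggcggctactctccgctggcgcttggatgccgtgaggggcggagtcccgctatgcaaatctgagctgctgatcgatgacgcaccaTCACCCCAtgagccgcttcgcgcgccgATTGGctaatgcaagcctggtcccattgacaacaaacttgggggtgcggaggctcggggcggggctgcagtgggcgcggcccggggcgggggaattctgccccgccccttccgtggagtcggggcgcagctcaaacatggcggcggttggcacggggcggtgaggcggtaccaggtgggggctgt

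The table of promoters held 25 of the 31 members, without Fdps, Fdft1, Sqle, Stard4, Npc1 and Abcg1. A gene was counted where any of its promoters held a match. On either strand, TCACNCCAC stood in 1 of the 25, Hmgcs1. It stood in 1.36% of the genes tested that had a promoter and in 1.24% of all 32851 promoters. In Hmgcs1 it began 137 bases before the start. The shorter TCACNCCA, which lies inside TCACNCCAC, was searched for after the promoters had been read. It stood in 3 of the 25, Hmgcs1, Msmo1 and Srebf2. The same letters stood in 4.56% of the genes tested that had a promoter and in 4.36% of all promoters. CCAAT stood in 20 of the 25 members, or 80%, in 42.6% of the genes tested that had a promoter and in 37.4% of all promoters. Hmgcs1 held it 4 times, and 14 of the 15 synthesis enzymes with a promoter held it at least once. GGGCGG, the letters of Sp1, stood in 22 of the 25 members and in 65% of the genes tested that had a promoter. Matches of TCACNCCAC, CCAAT and GGGCGG did not overlap in any promoter of a member. A match is a run of letters and not a measured binding site.

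Libraries held between 16972620 and 20470546 expected counts, and the 31 members took from 0.174% to 0.213% of them. Levels are CPM, each count as a share of its library's total, scaled between libraries by the trimmed mean of M-values (TMM). Libraries differed in tissue from outside the hippocampus: the summed level of 8 hypothalamic markers, Pmch among them, reached 303 CPM in library SNL 1, 65.0 CPM in library SNL 2, 361 CPM in library CBD 1, and at most 9.03 CPM in the other 6. The sum of 8 markers of thalamus and habenula was 394, 295 and 397 CPM in sham, 490, 1247 and 487 for SNL, and 512, 459 and 639 for CBD, so every SNL and CBD library lay above every sham library. All 8 were higher in SNL than in sham, with a median log2 fold change of 1.17, and all 8 in CBD than in sham, with 0.54. The sum of 8 choroid plexus markers ran from 333 to 3198 CPM, highest in SNL 2. The sum of 8 hippocampal neuron markers averaged 656 CPM ± 161 (SD, n = 3) in sham, against 407 CPM ± 88.9 for SNL and 481 CPM ± 158 for CBD. These markers of the labelled tissue were present in all libraries. All 8 were lower in SNL than in sham, with a median log2 fold change of -0.72. In CBD against sham 7 were lower and 1 higher, with a median of -0.41. The part of these differences in tissue in the values that follow was not tested. In bulk tissue, fewer cells of a type and less RNA per cell cannot be told apart.

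Every member was expressed in every library. Expected counts divide reads that fit several genes, and the counts of Acat2, Hmgcs1, Fdft1, Tm7sf2 and Scap were not whole in any of the 9 libraries, and those of Npc1, Msmo1, Idi1 and Npc2 in 5 to 8 of them, so their levels are less certain. By contrast, 13 members had whole counts throughout. Per kilobase of the principal transcript in GENCODE M21, the mean level over the 9 libraries was highest for Hmgcs1, which makes HMG-CoA for the mevalonate pathway, at 71.3 CPM per kilobase. Cyp46a1, the cholesterol 24-hydroxylase of neurons, followed at 57.7, then Srebf2 at 40.1, Fdps, which makes farnesyl diphosphate, at 36.2, and Insig1 at 34.4. The lowest was Nr1h3, the LXR alpha receptor, at 1.87 CPM per kilobase, against 23.5 for Nr1h2, the LXR beta receptor. Srebf1 stood at 19.1 and Insig2 at 18.1. The transcripts used in this tissue are not known from gene counts, so neighbours in this order may change place.

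**Figure D1:**
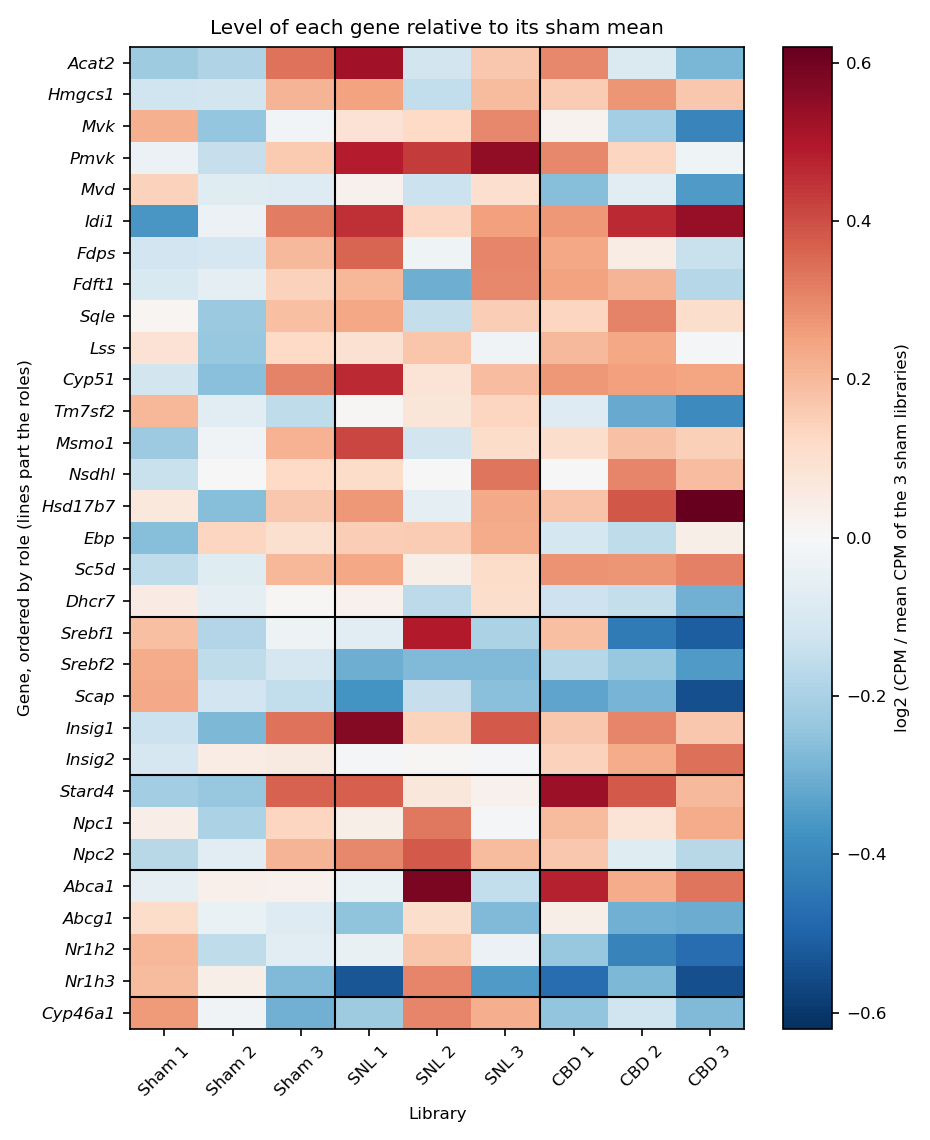
Level of each of the 31 genes (rows, ordered by role, roles parted by lines) in each of the 9 libraries (columns), as log2 of the CPM over the mean CPM of the 3 sham libraries. Most synthesis enzymes are above the sham mean in Sham 3, SNL 1, SNL 3, CBD 1 and CBD 2. Most are below it in Sham 1 and Sham 2. SNL 2 and CBD 3 have enzymes on both sides of it, while Srebf2 and Scap are lower than the sham mean in all SNL and CBD libraries.

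Differences between libraries were small. The highest library exceeded the lowest by 1.33-fold for Dhcr7 at the least and by 2.0-fold for Srebf1 at the most, with a median of 1.52-fold. By edgeR's quasi-likelihood test with Benjamini-Hochberg adjustment over all 17967 genes, 0 of the 31 members passed an adjusted p under 0.05 in any of the 3 comparisons, where 0% of all genes passed. At an unadjusted p under 0.05 there were 4 members in SNL against sham, 6 in CBD against SNL and 6 in CBD against sham, beside 13.8%, 13.7% and 16.3% of all genes. In SNL against sham 3 of these were higher (5.83% of all genes) and 1 lower (7.96%). In CBD against SNL 1 was higher (6.5%) and 5 lower (7.2%). In CBD against sham 4 were higher (7.41%) and 2 lower (8.87%). These counts depended on which library was left out, and the share of all genes in the same fit (in brackets) moved too. The 4 in SNL against sham became 9 without Sham 3 (19.1%), and 2 without Sham 2 (8.86%) or SNL 3 (14%). They became 1 without Sham 1 (8.31%), SNL 1 (7.98%) or CBD 2 (11.7%). The 6 in CBD against SNL became 8 without Sham 1 (13.5%), and 7 without Sham 3 (13.4%) or CBD 1 (20%). They became 5 without SNL 1 (10.2%) or SNL 2 (11.7%), and 3 without SNL 3 (11.3%). Without CBD 2 there were 2 (7.73%), and without CBD 3 there was 1 (6.18%). The 6 in CBD against sham became 12 without Sham 3 (20.8%) and 10 without CBD 1 (18.5%). They became 2 without CBD 3 (10%) or CBD 2 (11.1%), and 1 without Sham 1 (9.27%). The DESeq2 Wald test called 1 member in SNL against sham, Pmvk, and 0 in both other comparisons, beside 2.02%, 0.868% and 2.11% of all genes. Limma voom with sample weights called 0 members in SNL against sham, 2 in CBD against SNL, Nr1h2 and Pmvk, and 1 in CBD against sham, Idi1, beside 0.00557%, 6.3% and 5.85% of all genes. The values below are therefore differences that missed the threshold of the main test unless another test is named.

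SNL against sham compares tied with untied nerves, with solvent in both groups. These groups also differed in the markers of thalamus and habenula and of hippocampal neurons given above, and the part of that difference was not tested. Of the 18 synthesis enzymes, 17 had higher levels in SNL. The median log2 fold change of the 18 was 0.15, where 51.6% of all genes were higher and their median was 0.01. The exception was Dhcr7, the reductase of the last step, at -0.00. All 18 were higher with the size factors of DESeq2, which moved the medians by less than 0.01. Leaving out SNL 1, SNL 2 and CBD 1, an alternative added after seeing the data, makes SNL 3 the only SNL library, and 17 of 18 were higher there, with a median of 0.20. The count ran from 14, without Sham 2, to 18 when single libraries were left out. The median ran from 0.08 without Sham 2 and 0.10 without SNL 1 to 0.22 without SNL 2 and 0.23 without Sham 3.

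Pmvk, phosphomevalonate kinase of the mevalonate pathway (ENSMUSG00000027952), stood at 28.0, 26.0 and 32.2 CPM in the sham libraries, 40.3, 38.9 and 42.1 in SNL, and 35.4, 31.5 and 28.3 in CBD. All 3 SNL libraries lay above all others. Its log2 fold change in SNL against sham was 0.49 (SE 0.12), with an adjusted p of 0.217 by edgeR and 0.0248 by DESeq2. It had the smallest p of the 31 members, and the fold change lay between 0.42 and 0.59 in the 18 alternatives.

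Hmgcs1 (ENSMUSG00000093930) stood at 211, 212 and 266 CPM in sham, 273, 207 and 263 in SNL, and 257, 278 and 258 in CBD. Its SNL libraries overlapped sham, with a log2 fold change of 0.11 (SE 0.14), from 0.04 without SNL 1 to 0.23 without Sham 3. Idi1, the isopentenyl diphosphate isomerase (ENSMUSG00000058258), stood at 34.5, 43.2 and 55.2 CPM in sham, 60.7, 48.4 and 52.9 in SNL, and 53.4, 61.2 and 64.5 in CBD. Sham 3 lay among the SNL libraries, and the log2 fold change in SNL against sham was 0.29 (SE 0.17), or 0.13 without Sham 1 and 0.48 without Sham 3. Sqle, squalene epoxidase, a rate-limiting enzyme past squalene (ENSMUSG00000022351), stood at 53.7, 45.5 and 60.8 CPM in sham, 62.9, 48.1 and 59.3 in SNL, and 58.5, 66.1 and 57.5 in CBD. Its fold change in SNL against sham was 0.09 (SE 0.14) on the log2 scale, from -0.01 without Sham 2 to 0.20 without Sham 3, and the groups overlapped.

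The other synthesis enzymes had log2 fold changes in SNL against sham from -0.00 for Dhcr7 and 0.00 for Mvd, mevalonate diphosphate decarboxylase, to 0.25 for Cyp51, the lanosterol demethylase. Acat2, a thiolase that joins acetyl units, and Fdps both had 0.22 (SE 0.21 and 0.14), and Fdft1, squalene synthase, had 0.09 (SE 0.17). Msmo1, a sterol methyl oxidase, and Nsdhl, a sterol dehydrogenase, both had 0.15 (SE 0.15 and 0.13), while Lss, which closes the ring of lanosterol, had a group mean of 44.4 CPM in sham and 47.1 CPM in SNL. Only Pmvk and Ebp, the sterol isomerase, had all SNL libraries above all sham libraries, which held for 7.94% of all genes. Ebp stood at 11.7, 15.4 and 15.0 CPM in sham and 15.6, 15.7 and 16.5 in SNL.

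Many synthesis enzymes were high or low in the same libraries of a group. Sham 3 was the highest sham library for 13 of the 18, where it was highest for 34.2% of all genes. SNL 2 was the lowest SNL library for 14 of the 18, beside 36.9% of all genes, and CBD 3 the lowest CBD library for 11 of the 18, beside 34.9%. Their summed level was 856, 842 and 1039 CPM in the sham libraries, 1108, 884 and 1049 in SNL, and 1028, 1047 and 972 in CBD. The group means were 913 CPM ± 110 (SD, n = 3), 1013 CPM ± 116 and 1016 CPM ± 39.0, so the step from sham to both ligated groups was smaller than the SD within sham.

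Markers of myelinating oligodendrocytes also differed between groups. The summed level of 10 of them had a mean of 10103 CPM ± 1792 in sham, against 13195 CPM ± 2282 for SNL and 9473 CPM ± 791 for CBD, ranging from 9001 to 12170, from 10836 to 15392 and from 8564 to 10004 CPM. All 10 were higher in SNL than in sham and all 10 lower in CBD than in SNL. Sham 3, the sham library with the highest synthesis sum, also had the most myelin marker RNA of its group, while SNL 2 had the most of all libraries and the lowest synthesis sum of its group. Astrocyte markers had no common direction: of 10, 6 were higher and 4 lower in SNL than in sham, with a median log2 fold change of 0.02. In CBD against SNL 5 were higher and 5 lower. Slc1a2, the most abundant, averaged 2405 CPM in sham and 1906 CPM for SNL, and Slc1a3 averaged 510 and 385 CPM. These 2 weigh heavily on the sum of the 10, which had a mean of 4969 CPM ± 303 in sham, against 4424 CPM ± 260 for SNL and 5015 CPM ± 417 for CBD. Of 8 microglia markers, 4 were higher and 4 lower in SNL than in sham, with a median log2 fold change of 0.001. In CBD against SNL 1 was higher and 7 lower, with a median of -0.22. The same counts held in CBD against sham, with a median of -0.23. Markers of endothelium and pericytes were all higher in SNL than in sham, 8 of 8 with a median log2 fold change of 0.52. For 7 of the 8 every SNL library lay above every sham library, beside 7.94% of all genes. DESeq2 called 5 of the 8 and edgeR 0, beside 2.02% and 0% of all genes. The sum of the 8 averaged 361 CPM ± 34.7 in sham, against 518 CPM ± 62.9 for SNL and 444 CPM ± 32.5 for CBD. All 8 were lower in CBD than in SNL, with a median of -0.22. The part of these cells in the values of the synthesis enzymes and of the other members was not tested.

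**Figure D2:**
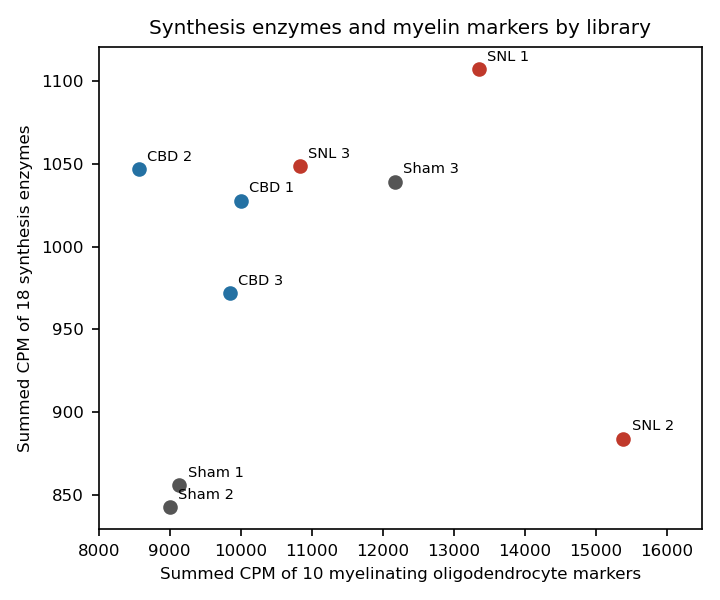
Summed CPM of 18 synthesis enzymes (vertical) against summed CPM of 10 myelinating oligodendrocyte markers (horizontal), 1 point per library, coloured by group (grey sham, red SNL, blue CBD); neither axis starts at 0. SNL 2 has the highest myelin sum, 15392 CPM, with a synthesis sum of 884 CPM, and the sham libraries span 842 to 1039 CPM.

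The genes that control synthesis did not share one direction. Srebf2, which encodes SREBP2 (ENSMUSG00000022463), stood at 269, 206 and 214 CPM in sham, 186, 189.9 and 190.2 in SNL, and 203, 195 and 180.3 in CBD. All SNL and all CBD libraries lay below all sham libraries, and Sham 1 stood apart above the rest. Its log2 fold change in SNL against sham was -0.28 (SE 0.12, adjusted p 0.324 by edgeR), or -0.15 without Sham 1. It was the only member with SNL wholly below sham, which held for 9.81% of all genes.

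Scap, the sterol sensor that escorts SREBP (ENSMUSG00000032485), stood at 129, 101 and 98.8 CPM in sham, 85.0, 99.5 and 91.8 in SNL, and 87.6, 89.8 and 75.3 in CBD. SNL 2 lay within the sham range, and the log2 fold change in SNL against sham was -0.25 (SE 0.13), or -0.12 without Sham 1. Insig1, the retention protein that is itself an SREBP target (ENSMUSG00000045294), stood at 73.3, 66.3 and 102 CPM in sham, 119, 88.7 and 105 in SNL, and 90.5, 99.2 and 90.2 in CBD. Its log2 fold change in SNL against sham was 0.37 (SE 0.16, adjusted p 0.353 by edgeR), and Sham 3 lay above SNL 2. Without SNL 2 the value was 0.48, and without Sham 3 it was 0.58.

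Insig2, the second retention protein, which is not driven by SREBP in the same way (ENSMUSG00000003721), stood at 42.9, 47.5 and 47.8 CPM in sham, 45.9, 46.3 and 45.8 in SNL, and 50.8, 54.1 and 58.3 in CBD. Sham and SNL overlapped, with a log2 fold change of -0.00 (SE 0.09), and every CBD library lay above every other library. Srebf1, which encodes SREBP1 and serves mostly fatty acid synthesis, ranged from 73.9 to 95.6 CPM in sham, from 73.3 to 118 in SNL and from 58.9 to 95.5 in CBD.

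**Figure D3:**
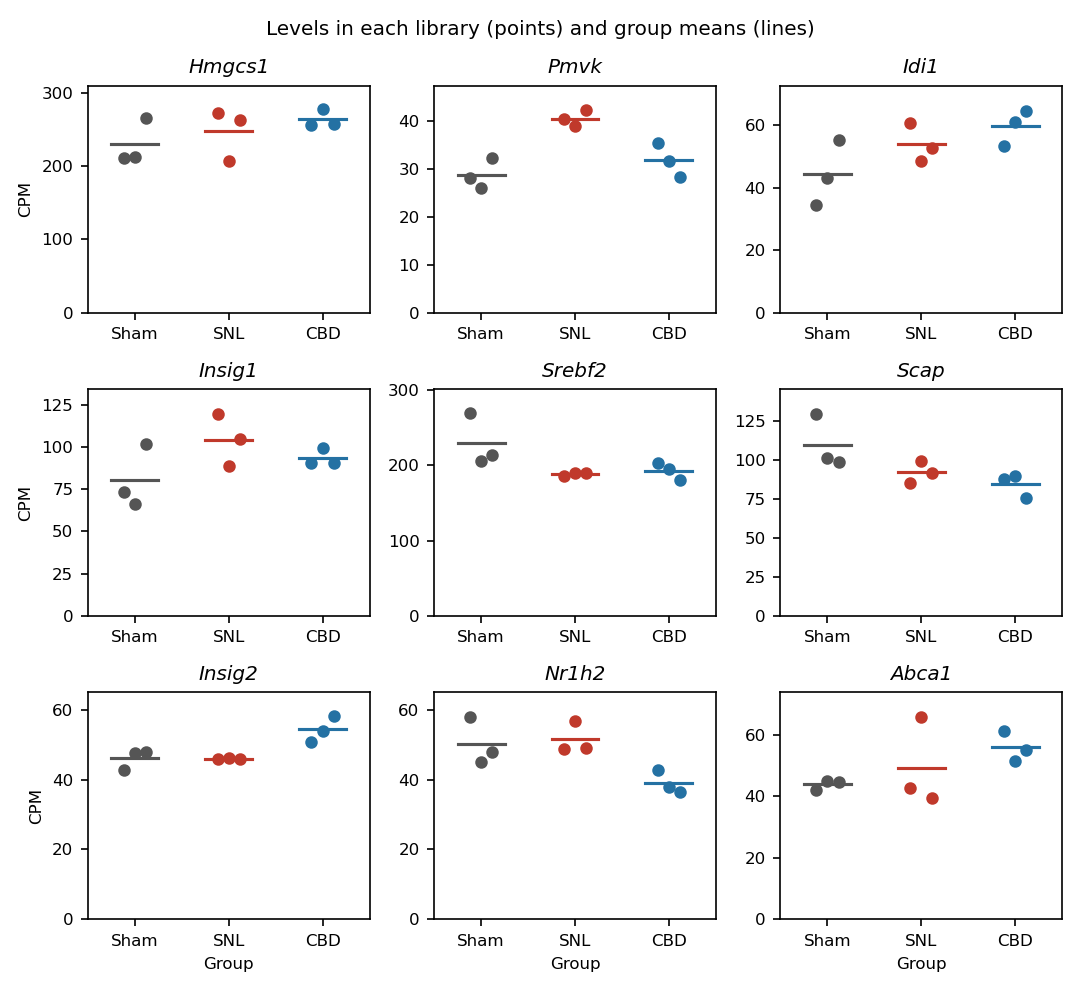
CPM (vertical, from 0) of 9 genes in each library (points, 3 per group) with the group mean (line), for sham, SNL and CBD. Pmvk is highest in the 3 SNL libraries at 38.9 to 42.1 CPM, Srebf2 highest in the 3 sham libraries, Insig2 highest and Nr1h2 lowest in the 3 CBD libraries.

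Among the transport genes, Npc2, a soluble protein that takes cholesterol out of the late endosome (ENSMUSG00000021242), stood at 60.6, 65.1 and 79.0 CPM in sham, 83.8, 88.7 and 78.2 in SNL, and 76.6, 64.8 and 60.6 in CBD. SNL 3 lay just under Sham 3, and the log2 fold change in SNL against sham was 0.29 (SE 0.13, adjusted p 0.350 by edgeR). Npc1, its membrane partner, had 0.13 (SE 0.12), with levels from 74.1 to 92.9 CPM in sham and from 84.2 to 106 in SNL. Stard4, a cytosolic sterol carrier, had 0.16 (SE 0.18), with 24.4 to 36.9 CPM in sham and 29.2 to 37.1 in SNL.

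Export genes showed no common direction in SNL against sham. Abca1, the exporter that loads lipoprotein particles (ENSMUSG00000015243), stood at 42.1, 44.9 and 44.8 CPM in sham, 42.7, 65.9 and 39.5 in SNL, and 61.2, 51.5 and 55.3 in CBD. The SNL mean rested on SNL 2: the log2 fold change was 0.17 (SE 0.17) with it and -0.10 without it. Abcg1, a second exporter, had -0.13 (SE 0.14), Nr1h2 0.03 (SE 0.12) and Nr1h3 -0.15 (SE 0.25). Cyp46a1 (ENSMUSG00000021259) stood at 149, 123 and 101 CPM in sham, 107, 153 and 145 in SNL, and 105, 114 and 103 in CBD, with a log2 fold change of 0.12 (SE 0.17) in SNL against sham and groups that overlapped. That value ran from -0.00 without Sham 3 to 0.27 without SNL 1.

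CBD against SNL compares ligated mice with and without cannabidiol. The 18 synthesis enzymes parted evenly, 9 higher and 9 lower, beside 49.9% of all genes higher, and their median was -0.00 on the log2 scale. The median of all 31 members was -0.05, beside -0.00 for all genes. It was -0.15 without CBD 1, -0.12 without SNL 3 and -0.01 without CBD 3. Enzymes before squalene had a median of -0.19 over 8 and those from Sqle onward 0.01 over 10. Without SNL 2 the median of the 18 was -0.14, and 14 were lower. Members whose groups did not overlap numbered 6 lower and 2 higher in CBD, beside 10.1% and 9.18% of all genes, or 19.3% in either direction.

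Nr1h2, the more abundant LXR (ENSMUSG00000060601), had the smallest p. It stood at 48.8, 56.8 and 49.1 CPM in SNL and 42.8, 37.7 and 36.3 in CBD, with 58.0, 45.1 and 47.9 in sham, so every CBD library lay below every library of the other groups. Its log2 fold change in CBD against SNL was -0.40 (SE 0.12), with an adjusted p of 0.306 by edgeR and 0.0399 by limma voom. Pmvk lay at -0.35 (SE 0.12, adjusted p 0.309 by edgeR), Npc2 at -0.31 (SE 0.13) and Insig2 at 0.24 (SE 0.09), each with groups that did not overlap.

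Tm7sf2, a sterol reductase (ENSMUSG00000024799), stood at 18.8, 19.7 and 20.5 CPM in SNL and 17.6, 15.0 and 14.2 in CBD, with 21.5, 17.8 and 16.7 in sham. Mvk, mevalonate kinase (ENSMUSG00000041939), stood at 19.0, 19.5 and 21.9 CPM in SNL and 18.1, 15.4 and 13.4 in CBD, with 20.8, 15.1 and 17.6 in sham. CBD lay wholly below SNL for both, with log2 fold changes of -0.33 (SE 0.13) and -0.36 (SE 0.15), while both overlapped sham. Central genes of the pathway differed by no more than about their error: Hmgcs1 had 0.09 (SE 0.14), Sqle 0.10 (SE 0.14) and Srebf2 0.03 (SE 0.12), and Insig1 had -0.16 (SE 0.16), or -0.06 without SNL 1 and -0.26 without SNL 2. Abca1 lay at 0.18 (SE 0.17), from 0.04 without SNL 3 to 0.45 without SNL 2, and Cyp46a1 at -0.33 (SE 0.17). The widest error among the control genes was that of Srebf1, at -0.33 (SE 0.22).

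**Figure D4:**
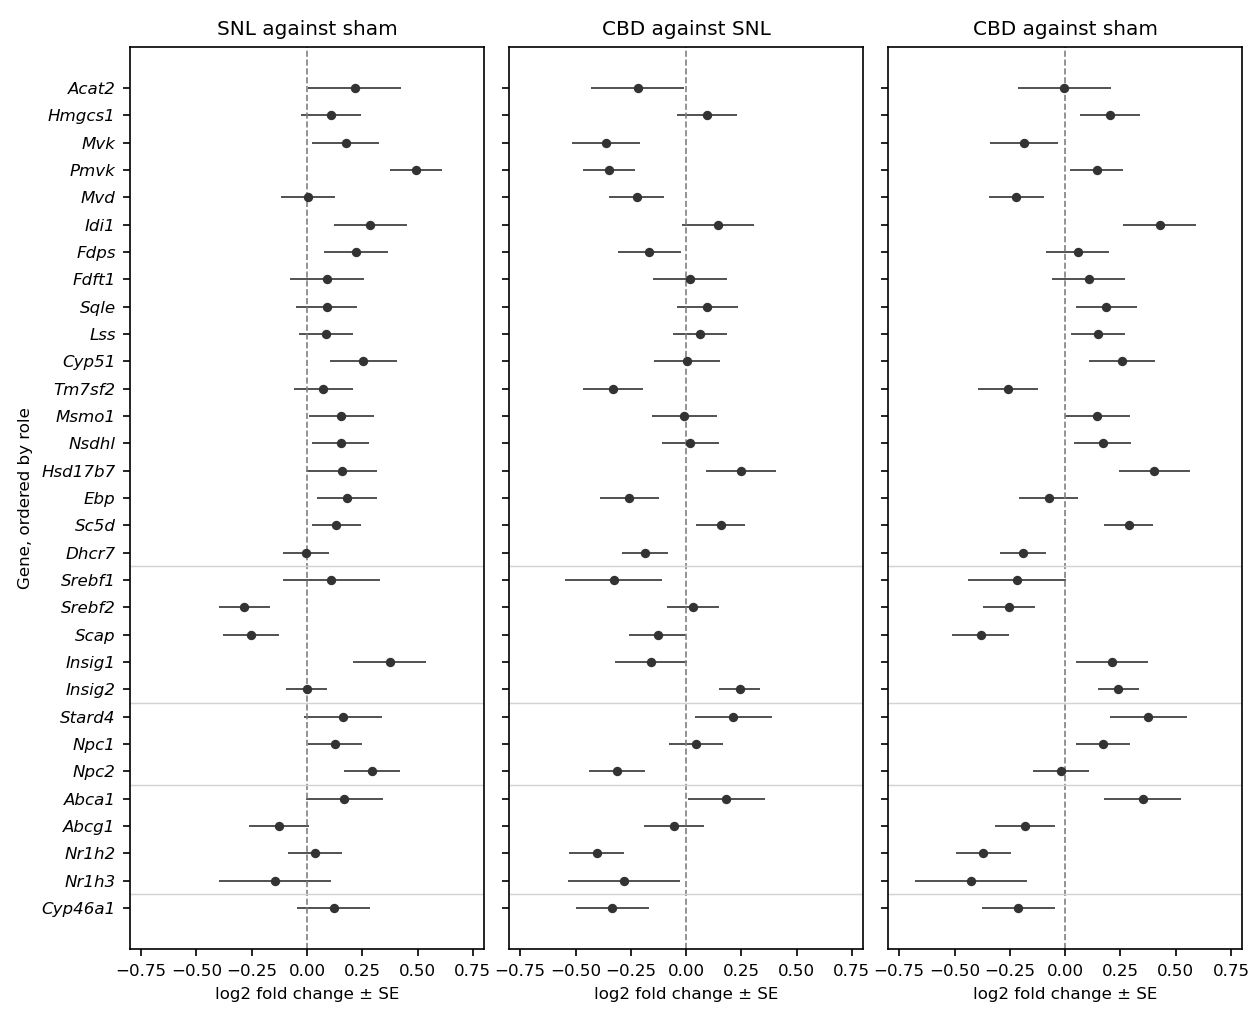
Log2 fold change with its standard error (horizontal) of each of the 31 genes (vertical, ordered by role) in the 3 comparisons from edgeR's fit on 9 libraries; the dashed line marks no change. In SNL against sham 17 of 18 synthesis enzymes lie right of 0, in CBD against SNL 9 do, and no gene passed the adjusted threshold.

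Members that were higher or lower in CBD differed in the base composition of their transcripts. Across 17642 genes, fold changes in CBD against SNL had a Spearman correlation of -0.45 with transcript GC content and 0.36 with transcript length, and in CBD against sham -0.57 and 0.15. These are descriptions across genes, which are not independent and share the libraries. Of 13 members with a GC content under the median of 49.8%, 10 were higher in CBD than in SNL, where 68.5% of all genes under that median were higher. Of the 18 members over it, 4 were higher, beside 31.1% of all genes over it. Nr1h2 at 60.6%, Mvk at 59.6%, Pmvk at 57.0% and Tm7sf2 at 56.4% are rich in GC, and Idi1 at 41.9% is the poorest.

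A fit with offsets for GC content and length in each library brought most of these values closer to 0. In CBD against SNL the log2 fold change became -0.16 for Nr1h2, -0.07 for Pmvk, -0.10 for Mvk, -0.10 for Tm7sf2 and 0.16 for Insig2. Npc2, at 51.3% GC, had -0.31 and was the 1 member at an unadjusted p under 0.05, beside 6.70% of all genes. Of the 18 synthesis enzymes, 6 were higher and 12 lower in that fit, beside 48.6% of all genes higher. In SNL against sham, where the correlation with GC content was -0.15, Pmvk had 0.42, Insig1 0.37 and Npc2 0.33, while Srebf2 went to -0.15 and Scap to -0.13. All 18 synthesis enzymes were then higher in SNL, with a median of 0.14.

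**Figure D5:**
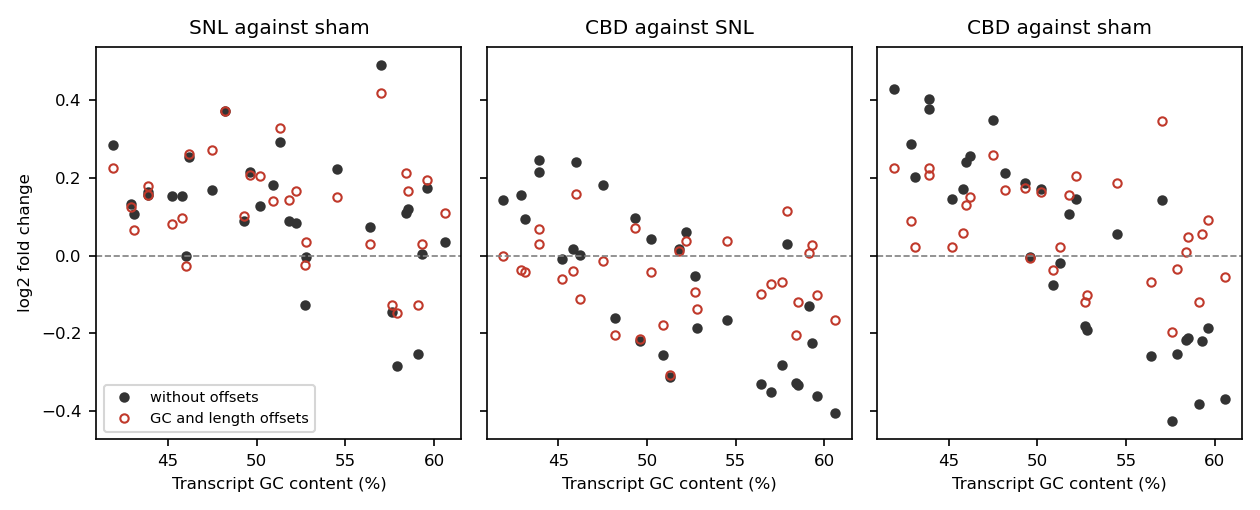
Log2 fold change (vertical) of the 31 genes against the GC content of their principal transcript in percent (horizontal), without offsets (filled) and with offsets for GC content and length (open), in the 3 comparisons. Without offsets GC-rich members lie lower in both CBD comparisons, Nr1h2 at 60.6% GC having -0.40 in CBD against SNL and -0.16 with offsets.

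CBD against sham differs in both the ligation and the drug, and its libraries are shared with the other comparisons. Of the synthesis enzymes 12 were higher and 6 lower, and the median was 0.14 on the log2 scale, where 50.1% of all genes were higher and 49.9% lower. That median was 0.08 without Sham 1 or Sham 2, 0.09 without CBD 1 and 0.22 without Sham 3. Idi1 had 0.43 (SE 0.17, adjusted p 0.251 by edgeR and 0.0489 by limma voom), and CBD 1 lay just under Sham 3. Groups did not overlap for 4 members that were higher in CBD and 5 that were lower, beside 10.6% and 11.1% of all genes.

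Sc5d, the sterol desaturase (ENSMUSG00000032018), stood at 64.0, 67.8 and 82.2 CPM in sham, 84.2, 73.1 and 77.1 in SNL, and 86.6, 86.2 and 88.4 in CBD. Hsd17b7, a sterol ketoreductase (ENSMUSG00000026675), stood at 17.5, 14.0 and 18.8 CPM in sham, 20.2, 16.1 and 19.8 in SNL, and 18.9, 21.9 and 25.8 in CBD. CBD lay above sham in every library for both, by 0.29 (SE 0.11) and 0.40 (SE 0.16) on the log2 scale, although CBD 1 cleared Sham 3 by little for Hsd17b7. Insig2 had 0.24 (SE 0.09) and Abca1 0.35 (SE 0.17), also without overlap. Stard4 had 0.38 (SE 0.18) and Npc1 0.17 (SE 0.12), and both overlapped sham.

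Members lower in CBD than in every sham library were Nr1h2 (-0.37, SE 0.12), Scap (-0.38, SE 0.13), Srebf2 (-0.25, SE 0.12), Dhcr7 (-0.19, SE 0.11) and Nr1h3 (-0.43, SE 0.25) on the log2 scale. All 5 have a GC content above the median of the genes tested. Without Sham 1, Scap had -0.25, Srebf2 -0.12 and Idi1 0.28. In the fit with offsets the 5 values, in the order given, became -0.06, -0.12, -0.03, -0.10 and -0.20. Those of Sc5d, Hsd17b7 and Idi1 became 0.09, 0.22 and 0.23. Of the synthesis enzymes, 14 were higher and 4 lower with offsets, beside 49.5% of all genes higher. The number of members at an unadjusted p under 0.05 went from 6 to 1, beside 6.82% of all genes. That 1 was Pmvk, which was not among the 6, at 0.35 with offsets and 0.14 without.

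Around the members, 55 further genes of sterol and lipid handling were read from the same fit, and 0 of the 55 passed the adjusted threshold by edgeR in any comparison. At an unadjusted p under 0.05, 4 were higher and 5 lower in SNL against sham, 1 and 3 in CBD against SNL, and 5 and 6 in CBD against sham. Over all genes tested these shares were 5.83% and 7.96%, 6.5% and 7.2%, and 7.41% and 8.87%. DESeq2 called 1 of the 55, Rxrb, in CBD against sham, with an adjusted p of 0.019, beside 2.11% of all genes. In SNL against sham the smallest p-values were those of Scarb1, a lipoprotein receptor, at -0.42 (SE 0.13), and Scd1, a fatty acid desaturase under SREBP and LXR, at 0.45 (SE 0.16).

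In both CBD comparisons the smallest belonged to Rxrb, a retinoid X receptor and partner of LXR. It stood at 66.2, 60.8 and 57.7 CPM in sham, 58.4, 62.4 and 54.5 in SNL, and 47.5, 46.5 and 41.0 in CBD. Its log2 fold change was -0.38 (SE 0.10) in CBD against SNL and -0.45 (SE 0.10) in CBD against sham, with adjusted p of 0.306 and 0.213 by edgeR. The value of Rxrb in the fit with offsets for GC content and length is not given here. Next came Stard3, a late endosomal sterol carrier, at -0.33 (SE 0.12) in CBD against SNL, and Nus1, a subunit of the dolichol branch enzyme, at 0.33 (SE 0.10) in CBD against sham.

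Targets of SREBP in fatty acid synthesis had a median log2 fold change of 0.10 over 13 genes in SNL against sham. They were split, 8 higher and 5 lower, with values from -0.32 to 0.45. In CBD against SNL their median was -0.03, with 5 higher and 8 lower. Genes of SREBP processing and sterol-regulated degradation had a median of -0.02 over 10 genes in SNL against sham. In CBD against SNL it was 0.12, with 9 of 10 higher in CBD. None of these lists was tested as a list.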

How the data were processed

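RNA of mouse hippocampus was sequenced in 9 libraries, 3 per group. The authors deposited RSEM expected counts per gene, on build GRCm39, per the submitters' processing notes; annotation, aligner and RSEM version: not given in the sources used here. Counts were rounded to whole numbers, filtered with filterByExpr, scaled by TMM and tested with edgeR 4.0.16 (quasi-likelihood F test, 1 factor for group over 9 libraries, Benjamini-Hochberg adjustment over 17967 genes, threshold 0.05). The code was tested on simulated data. Alternatives used DESeq2 1.42.0, limma 3.58.1, other filters, subsets of libraries, a replicate block, and offsets from splines of transcript GC content and length (GENCODE M21, GRCm38). The reference is of another build than the files, so gene coordinates are not given except for promoters. Library totals of 16972620 to 20470546 set the counting precision. All 31 members are described; values in every library are given for the 6 smallest p per comparison and for Hmgcs1, Sqle, Insig1, Srebf2, Abca1 and Cyp46a1. Of the further genes, up to 2 with the smallest p per comparison are named. The promoters of Insig1 and Srebf2 were added after values were seen. Members and lists were chosen with earlier results of these data known. Levels are CPM without length unless stated.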

Additional observations from a re-analysis of the deposited data

How the results depend on the processing

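With 3 libraries a group, small differences cannot be resolved: the number of all genes called depended on the test, and the cause was not tested. In SNL against sham, CBD against SNL and CBD against sham, edgeR called 0 genes each. DESeq2 called 363, 156 and 380, limma voom 1, 1132 and 1051, and edgeR without the filter on low counts 253, 1 and 56. An adjusted p under 0.1 gave 2 in SNL against sham, and the 6 libraries compared gave 1 in CBD against sham. Leaving out single libraries gave 0 to 8, 0 to 2 and 0 to 17, the highest each time without CBD 1. Leaving out the 3 libraries with hypothalamic transcripts, chosen after seeing the data, gave 1, 2 and 20; SNL 3 then stands alone and is assumed to vary like the others. Members called were 1 by DESeq2 in SNL against sham, and 2 and 1 by limma voom in the CBD comparisons, and 0 in every fit with a library left out. The median of the synthesis enzymes in CBD against SNL ran from -0.14 without SNL 2 to 0.026 without SNL 1, and was -0.18 without the 3 hypothalamic libraries.

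Of 34 gene values, 26 had 1 direction in all 18 alternatives. In SNL against sham, leaving out single libraries gave Sqle -0.013 (without Sham 2) to 0.199, Abca1 -0.096 (without SNL 2) to 0.306, and Cyp46a1 -0.002 (without Sham 3) to 0.274. Without the hypothalamic libraries Abca1 had -0.146. In CBD against SNL, leaving out single libraries gave Hmgcs1 -0.02 (without SNL 2) to 0.164, Sqle -0.01 (without SNL 2) to 0.17, and Srebf2 -0.018 (without CBD 1) to 0.076. Srebf2 had -0.02 without the hypothalamic libraries, and with offsets Hmgcs1 had -0.043 and Abca1 -0.015. In CBD against sham, Cyp46a1 had 0.048 with offsets. The cause of these reversals was not tested. Deviations of same-numbered libraries from their group means had correlations from -0.27 to 0.19, and those of differently numbered libraries from -0.27 to 0.31. With only 3 libraries behind each group mean, these values cannot show whether the numbers pair the libraries. With a replicate block 0 members were called, and the members' medians were 0.13, -0.055 and 0.11.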
